A study of Rattus norvegicus with 6 samples.

Results

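Each expression table of this series lists, beside the known genes, short stretches of transcript that the assembler built from the reads of that library and to which it gave no gene name. The loci described here are those that lie fully inside the span of a named gene. In every library, a locus was taken when it had an assembler identifier and no gene name and lay fully within the locus of a gene listed under an Ensembl identifier in the same table. This gave 1867 loci in 798 genes over the 6 libraries, out of 290171 unnamed loci and 480621 rows in all. The members were chosen by measured values, namely the loci that the assembler built from the reads of each library and the identifier that each gene had there, without regard to treatment. The number of loci, their FPKM and their genes are therefore given as values per library, and the values that chose the members support no claim about the members as a class.

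The 6 libraries came from tissue labelled prefrontal cortex of male F344 rats aged 18 months. Untreated replicates 1, 2 and 3 received no manipulation, and manipulated replicates 4, 5 and 6 had cranial osteopathic manipulation, in which a trained practitioner moves the skull by hand. Per the labels, treatment ran over 7 days under 1.5 to 3% isoflurane, untreated rats were also anaesthetised, and the tissue was a coronal slab 1 mm thick from the dorsal end of the region. Each rat gave 1 library, and the labels give no batch or pairing. The study asked whether manipulation of aged rats goes with changes in gene expression in this tissue, with the cholinergic pathway in view.

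A gene is transcribed whole, introns included, and the introns are removed as the transcript matures. Genes for synaptic adhesion molecules, ion channels and glutamate receptors are among the longest in the genome, and most of their length is intron. An assembler reports any cluster of fragments that it cannot link to known exons as a locus of its own, and such a cluster may lie in an intron, in an exon that the annotation lacks, or in a transcript of the opposite strand. The tables give neither strand nor exons, so these cannot be told apart here.

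FPKM is a count of fragments scaled to transcript length and to the mapped fragments of the library. The number of reads per library was not used here. The implied fragment number, an estimate of depth from the width of the FPKM intervals, had a ratio of manipulated to untreated means of 0.992, with overlapping groups and an exact two-sided permutation p of 0.8. The 3 measured markers of cortical excitatory neurons had a summed FPKM of 56.1 to 124 per library, and 2 were lower in manipulated rats, 1 without overlap. Of 6 thalamic and hypothalamic neuron markers, 6 were lower in every manipulated library than in every untreated one. Their summed FPKM was 87.9, 104 and 132 in untreated and 10.8, 10.6 and 9.12 in manipulated libraries, and Pmch was listed at 0 in at least 1 library. Of 6 striatal neuron markers, 6 were higher without overlap, at 33.4, 33.5 and 50.2 against 135, 152 and 60.2 FPKM. Over all 10643 genes tested for own FPKM, 23.7% were lower and 1.08% higher without overlap. Choroid plexus markers summed to 457, 456 and 465 against 237, 1228 and 996 FPKM. In the other lists, 2 of 3 astrocyte, 1 of 4 microglia and 1 of 5 interneuron markers were lower without overlap. None of 3 oligodendrocyte and 2 endothelial markers separated the groups. These lists mark different brain regions or cell types, and their part in the results below was not tested. In bulk tissue, fewer cells of a type and less RNA per cell cannot be told apart.

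Which identifier a gene carries limits what the rule can see. Between 16412 and 17826 rows per library were under an Ensembl identifier, with a median span of 0.939 to 0.951 kb, and 65.2% to 66.9% of them were listed at 0 FPKM. Another 14030 to 15151 rows had a gene name under an assembler identifier, with a median span of 24.1 to 25.0 kb, and 64.5% to 72.2% of them reached 1 FPKM. The same gene could change identifier between libraries. Of the 798 genes, 265 had an Ensembl row in 1 library and 59 in all 6. Of the 739 that lacked it somewhere, 473 had unnamed loci there under the assembler's identifier. For this reason a wider reading, chosen after the data were seen, is given beside the rule: unnamed loci inside any row with a gene name. It holds 143423 loci, and the loci of the rule are 0.990% to 3.25% of it in each library.

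Fewer loci lay inside genes under an Ensembl identifier in manipulated than in untreated rats. The 3 untreated libraries held 480, 365 and 346 loci, and the 3 manipulated libraries held 272, 187 and 217. The groups did not overlap. The means were 397 ± 72.5 and 225 ± 43.1 (SD, n = 3), a ratio of 0.568, with an exact two-sided permutation p of 0.1. No split of 3 and 3 libraries can give a smaller p. All unnamed loci of a library, inside or outside genes, numbered 83154, 51502 and 66388 against 35532, 17075 and 36520. The lower number is therefore not particular to loci inside these genes. The number of genes that carried a locus was 245, 205 and 215 in untreated and 151, 135 and 134 in manipulated libraries, again without overlap and with an exact permutation p of 0.1. As a share of all genes with an Ensembl row these were 1.49%, 1.20% and 1.27% against 0.863%, 0.758% and 0.761%. Within the 13018 genes with an Ensembl row in all 6 libraries, whose identifier did not change, the libraries held 49, 28 and 45 loci against 22, 24 and 19.

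The summed FPKM of these loci did not follow their number. It was 1995, 3825 and 4044 FPKM in untreated and 3235, 4428 and 1578 FPKM in manipulated libraries, so that the groups overlapped, with an exact permutation p of 0.8. A sum of FPKM is carried by few members here. The 10 genes with the highest values held 55.9% to 77.9% of it in a library. Loci shorter than 150 bases were 5.25% of the loci and 68.7% of the summed FPKM. Their median was 79.2 FPKM at a median of 13.0 implied fragments. Loci of 300 to 599 bases had 0.971 FPKM at 11.9 implied fragments. The gap in FPKM is wider than the gap in length, and its source was not tested. The fragments implied by the FPKM intervals summed to 9378 ± 1601 in untreated and 6534 ± 1584 in manipulated libraries (SD, n = 3), with an exact permutation p of 0.2.

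**Figure D1:**
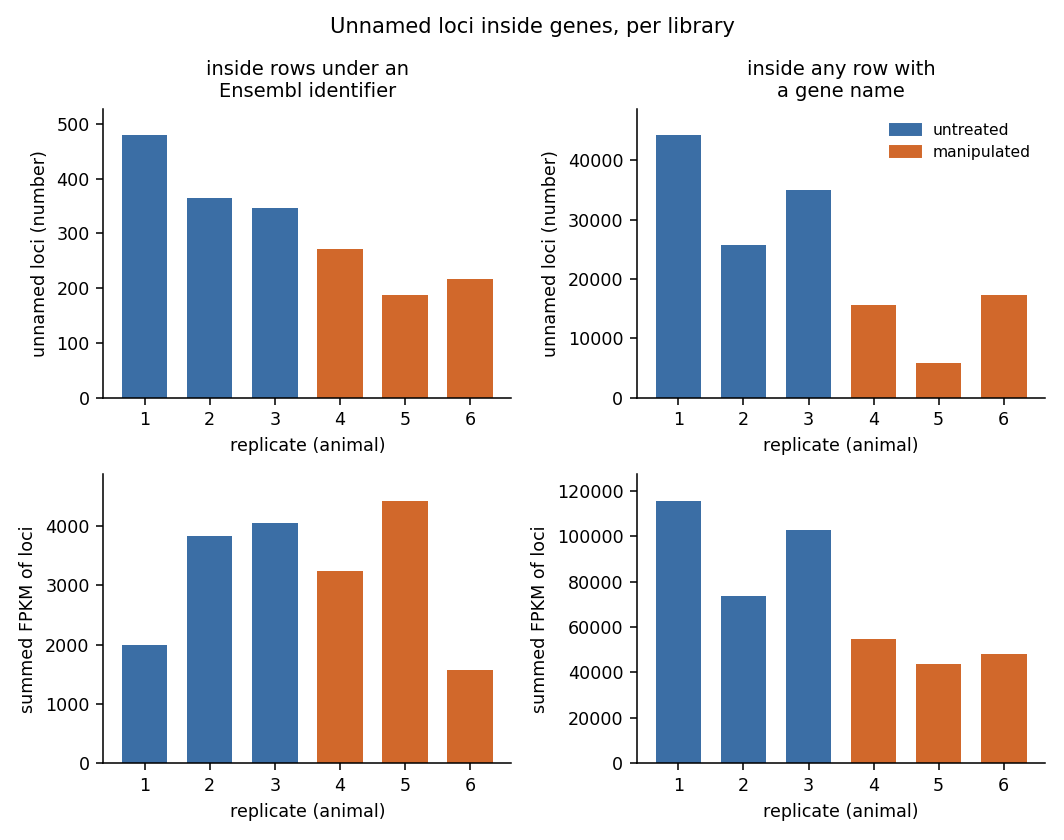
Bars show, for each library (x axis, replicate number), the number of unnamed loci (upper panels) and their summed FPKM (lower panels), inside rows under an Ensembl identifier (left) and inside any row with a gene name (right). The numbers do not overlap between untreated (blue, 480, 365 and 346 on the left) and manipulated rats (orange, 272, 187 and 217), while the summed FPKM on the left does.

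The loci were short and thinly covered in both groups. Their median length was 472 to 542 bases and their median FPKM 0.826 to 1.28 per library. The median number of fragments implied for a locus was 11.9 to 14.3. Loci from 300 bases to under 600 were the most frequent class, with 38.6% of the loci and 5.25% of the FPKM. Inside the gene row they lay close to evenly. Between 22.4% and 29.4% of the loci of a library had their midpoint in the outermost 2 of 10 equal parts of the row, and 15.3% to 22.1% in the 2 parts at its middle. The median distance to the nearer edge of the row was 2.52 to 5.44 kb. At the edge of the rule, another 213 to 448 unnamed loci per library overlapped an Ensembl row without lying fully inside it. Of the 1867 loci, 106 in 14 genes also lay in a smaller row, named by the assembler, inside the Ensembl row.

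**Figure D2:**
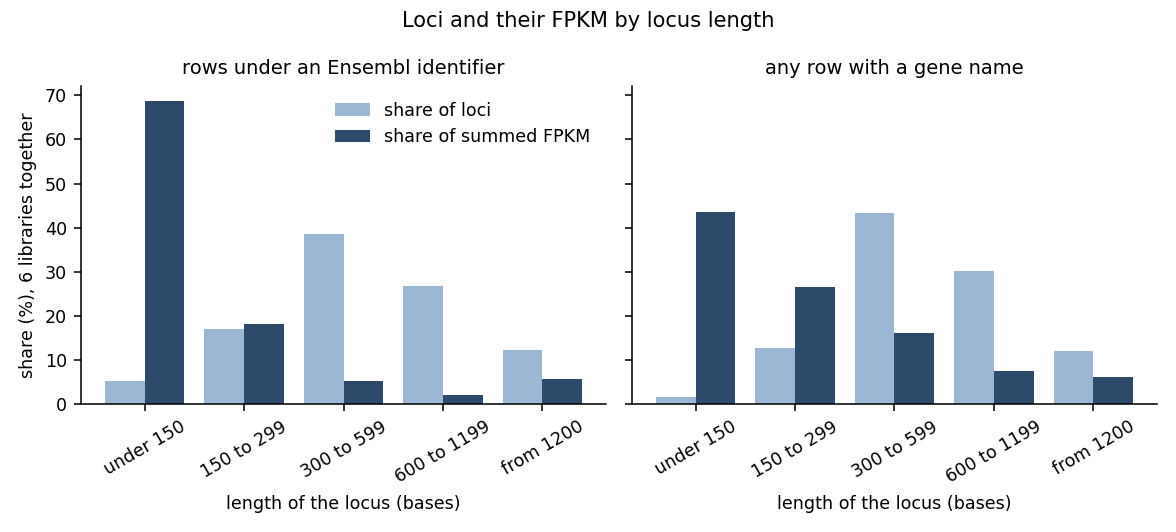
For loci inside rows under an Ensembl identifier (left) and inside any row with a gene name (right), bars give the share of loci (light) and of summed FPKM (dark) in each class of locus length in bases (x axis), with the 6 libraries together. Loci under 150 bases are 5.25% of the loci and 68.7% of the FPKM on the left, and 1.65% and 43.5% on the right.

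The genes that carried a locus were longer than the other Ensembl rows and mostly protein-coding. Their median span was 15.7 to 20.6 kb per library, against 0.936 to 0.948 kb for the Ensembl rows without a locus. A locus has to fit fully inside its row, so the rule itself favours long rows. Genes named under an assembler identifier had a median span of 24.1 to 25.0 kb. Carriers had a median own FPKM of 0.656 to 1.68, against 0 for the same short rows without a locus. Protein-coding genes held 382, 278 and 268 of the loci in untreated and 194, 122 and 163 in manipulated libraries. Genes with a clone or locus name came next, with 97, 86 and 74 against 78, 62 and 52 loci. Per megabase of their rows, protein-coding genes had 5.01, 3.02 and 3.02 loci in untreated and 2.02, 1.16 and 1.63 in manipulated libraries. Genes with a clone or locus name had 2.54, 2.09 and 1.84 against 1.87, 1.42 and 1.21, above protein-coding genes in manipulated replicate 5. Long non-coding RNA genes held at most 4 loci in a library. Most carriers had a single locus, with 66.9% to 83.0% of the carriers of a library. The share of rows that carried a locus was 0.236% to 0.669% for rows under 10 kb and 6.90% to 14.9% for rows of 100 to 300 kb. Per megabase of gene the order was the opposite, with 5.55, 4.16 and 3.85 against 2.51, 2.03 and 1.70 loci in rows under 10 kb, and 2.67, 3.12 and 1.42 against 1.02, 0.692 and 1.60 in rows of 100 to 300 kb. The density in rows under 10 kb did not overlap between the groups, and that in rows of 100 to 300 kb did.

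The carriers with the most loci had them in few libraries, those in which the Ensembl identifier was kept. Mblac2, a gene of the metallo-beta-lactamase fold family (chromosome 2, 9578345 to 9623513, Rnor_6.0), had 19 loci in untreated replicate 1, its only library with an Ensembl row. Counted in any row that bears its name, it had 19, 8 and 11 loci in untreated and 4, 1 and 2 in manipulated libraries. Dcp1a, which takes part in removal of the mRNA cap (chromosome 16, 6542216 to 6587619), had 15 loci in the same library under the rule. In any row with its name it had 15, 5 and 5 against 5, 0 and 1. In both genes the 3 untreated libraries were at or above the highest manipulated one, and they met in Dcp1a at 5.

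Cdh10, a cadherin of neurons (chromosome 2, 69415057 to 69637524), had 13 loci under the rule in untreated replicate 2. In any row with its name it had 23, 13 and 38 loci against 3, 0 and 8, without overlap. Hs3st1, a heparan sulfate sulfotransferase, had 5 and 10 loci under the rule in manipulated replicates 4 and 6. Over any row it had 11, 0 and 5 against 5, 0 and 10, which overlap. Sla2, an adaptor of antigen receptor signalling, had 7 and 4 loci in manipulated replicates 4 and 5, and 15, 1 and 3 against 7, 4 and 4 over any row. The transcriptional repressor Bcl6 kept its Ensembl row in 5 libraries, and had 8 and 3 loci in untreated replicates 1 and 3 and none in the 3 manipulated libraries. The cholesterol transporter Npc1l1, the ubiquitin ligase Ube4b, the potassium channel subunit Kcnab1 and Arhgap45 complete the 10 genes with the most loci. The loci of Arhgap45 all lay in smaller rows named by the assembler.

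The genes with the highest inner FPKM had 1 or 2 loci in a library, except for Lamp2 with 5. Olr1090, an olfactory receptor gene with a row of 183 kb, was itself listed at 0 FPKM in all 6 libraries. Its inner loci had 150, 750 and 0 FPKM in untreated and 0, 872 and 0 FPKM in manipulated libraries. Adgrg5, an adhesion G protein-coupled receptor (chromosome 19, 10495517 to 10513349), had an own FPKM of at most 0.0182, and inner values of 0, 226 and 700 against 217, 307 and 139 FPKM. For both, the values of 1 group alone spanned the range over all 6 libraries. The other genes by this rule were Atp10b, Gtsf1, Meig1, Rab27a, Hint3, Lamp2, Cpn1 and Fndc7. Meig1, Rab27a and Lamp2 had their value in 1 library, at 474, 441 and 405 FPKM. Lamp2, a lysosomal membrane protein gene, had an own FPKM of 18.2 there.

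Few places held a locus in more than 1 library. Overlapping loci of the 6 libraries formed 1488 places, of which 87.0% had a locus in 1 library and 6 in all 6. A place in Gtsf1, a gene of the piRNA pathway of germ cells (chromosome 7, 145045306 to 145045549), had 19.5, 328 and 23.8 FPKM in untreated and 19.2, 207 and 32.2 FPKM in manipulated libraries, while the gene's own FPKM was at most 0.0161. A place in Sycp1, a gene of the synaptonemal complex of meiosis (chromosome 2, 205304813 to 205305265), had 2.93, 6.16 and 3.39 against 2.63, 2.34 and 2.02 FPKM, with the gene listed at 0 throughout. A place in Senp17 (chromosome 4, 161022128 to 161024256) had 1.75, 0.869 and 1.35 against 0.726, 1.21 and 3.14 FPKM. The other 3 places lay in genes with clone or locus names. Only the Sycp1 place had no overlap between the groups. Among pairs of libraries, 7.71% to 16.2% of the loci of an untreated library met a locus of another untreated one by at least 1 base. Within the manipulated group this share was 16.9% to 24.4%, and across the groups it was 4.79% to 19.8%.

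Tested gene by gene, no gene under an Ensembl identifier passed for its inner FPKM. The fit could use only genes with an Ensembl row in all 6 libraries and a mean inner FPKM of at least 1, which left 25 of the 798. By limma on log2(FPKM + 1), 0 of 25 passed a Benjamini-Hochberg adjusted p of 0.05 (0.0% called) and 0 had an unadjusted p under 0.05. The median log2 fold change was -0.09, and 13 of 25 were lower. In 3 of 25 (12.0%) the groups did not overlap, all lower in manipulated rats, and Sycp1 was the only one of them with a gene name. Over all 10643 genes tested for own FPKM, 23.7% were lower without overlap, so that this share was below the background. On the log2 scale it differed by -0.59 (SE 0.76), and the limma adjusted p was 0.701. Against the gene's own FPKM, 0 of 25 passed and 1 had an unadjusted p under 0.05. Without manipulated replicate 6, 2 genes passed in both fits, both with clone names, and both had loci in manipulated replicates 4 and 5 alone. The own FPKM of carriers was tested as well, which the rule did not use. Of 473 carriers, 1 gene fell and 0 rose (0.211%), while of all 10643 genes tested 29 fell (0.272%) and 9 rose (0.0846%). It was Synpo2, which encodes an actin-binding protein, at 5.38, 4.69 and 4.94 FPKM in untreated and 0.577, 0.808 and 0.348 FPKM in manipulated rats. The difference was -1.94 on the log2 scale (SE 0.22), and the limma adjusted p was 0.00488. Its inner loci numbered 1, 0 and 3 against 1, 2 and 1 in any row with its name.

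Inside any row with a gene name, the difference in number between the groups was larger. Untreated libraries held 44266, 25683 and 34960 loci and manipulated libraries 15521, 5746 and 17247, without overlap. The ratio of the means was 0.367, with an exact permutation p of 0.1. The genes that carried a locus numbered 6511, 5078 and 5634 against 3680, 2455 and 3786, and the loci per carrier were 6.80, 5.06 and 6.21 against 4.22, 2.34 and 4.56. The summed FPKM was 115708, 73541 and 102702 against 54778, 43721 and 47995, a ratio of 0.502, and the groups did not overlap. Manipulated replicate 5 had the fewest loci by either reading. Without it the ratio of loci was 0.469. The lengths of these loci, with medians of 524 to 556 bases, and their median FPKM, 0.646 to 0.941, overlapped between the groups.

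Unnamed loci outside every named row also differed in number. Their ratio of means lay between that of the wider reading, 0.367, and that of the rule, 0.568. They numbered 38888, 25819 and 31428 in untreated and 20011, 11329 and 19273 in manipulated libraries, a ratio of 0.526 with an exact permutation p of 0.1. The share of unnamed loci that lay inside a named row tests the difference between inside and outside. It was 53.2%, 49.9% and 52.7% in untreated and 43.7%, 33.7% and 47.2% in manipulated libraries, without overlap and with an exact permutation p of 0.1. Under the rule itself the share was 0.577%, 0.709% and 0.521% against 0.766%, 1.10% and 0.594%, which overlap, at a p of 0.2. The summed FPKM outside was 191955, 257972 and 150219 against 306841, 294949 and 284111, higher without overlap in manipulated rats. A single locus held much of it, with highest values of 51010, 110797 and 12896 against 138242, 166022 and 136164 FPKM. Over outside loci of at least 150 bases the summed FPKM overlapped between the groups, with an exact permutation p of 0.3. FPKM is a share within the library, so values inside and outside are not independent.

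By gene length, the density in the wider reading had no steady order. In rows under 10 kb there were 21.7, 17.6 and 20.6 loci per megabase in untreated and 11.6, 8.62 and 11.8 in manipulated libraries. In rows of 10 to 30 kb there were 41.6, 24.9 and 29.2 against 14.5, 7.98 and 14.8, and in rows of 100 to 300 kb 36.0, 20.6 and 27.7 against 12.1, 4.10 and 13.8. In rows of 300 to 1000 kb there were 49.9, 33.9 and 49.0 against 21.8, 4.98 and 24.7. This bin was above that under 10 kb in 5 of 6 libraries, and below it in manipulated replicate 5. In rows over 1000 kb, 10 to 13 per library, there were 69.4, 19.4 and 62.3 against 11.1, 2.51 and 11.4. The groups overlapped in none of these bins. The longest bin divided by the shortest gave 2.44 ± 1.16 in untreated and 0.735 ± 0.385 in manipulated libraries (SD, n = 3), without overlap and with an exact permutation p of 0.1. This rests on the few rows over 1000 kb. The p was 0.2 with the gene span common to all libraries, with loci of at least 1 FPKM, and with rows of 100 to 300 kb in place of the longest. The share of genes that carried a locus was 1.56% to 3.39% under 10 kb and 41.2% to 78.3% at 300 to 1000 kb. Among genes of 300 to 1000 kb, the median own FPKM of carriers was 3.61 to 5.99 and that of the others 0.906 to 2.80. Protein-coding genes held 90.6% to 93.7% of these loci, a share that also reflects how much of the named span is protein-coding. Per megabase they had 43.6, 25.7 and 35.0 loci in untreated and 15.2, 5.46 and 16.9 in manipulated libraries. Genes with a clone or locus name had 25.0, 13.9 and 20.5 against 11.6, 4.66 and 9.78.

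**Figure D3:**
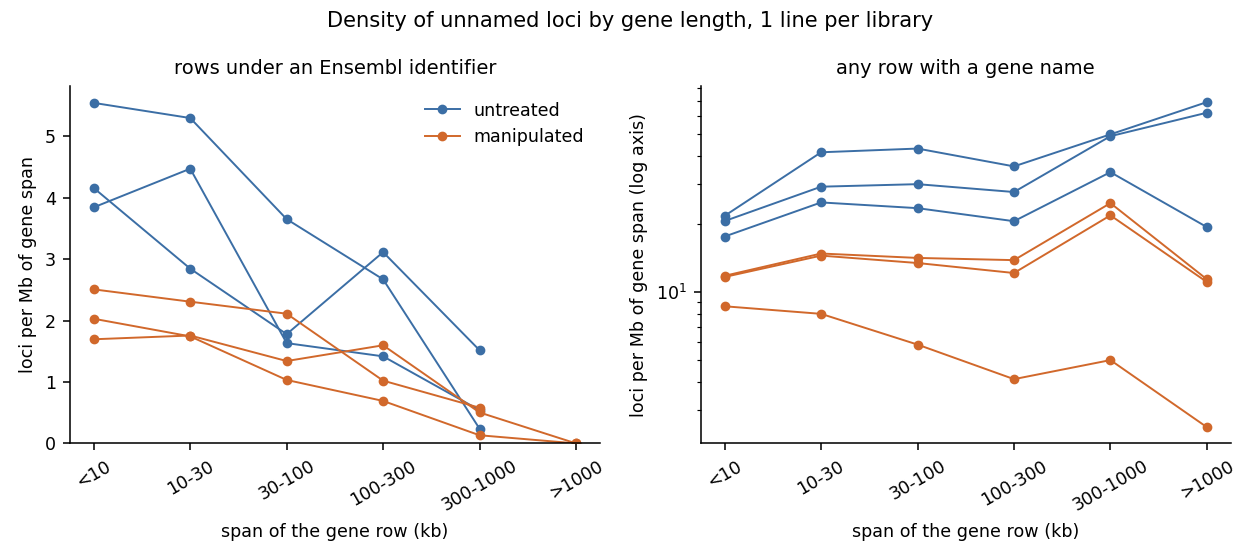
Lines show, for each library (untreated blue, manipulated orange), the number of unnamed loci per megabase of gene span against the span of the gene row in kb, for rows under an Ensembl identifier (left, linear axis) and for any row with a gene name (right, log axis). On the right, rows of 300 to 1000 kb hold 49.9, 33.9 and 49.0 loci per megabase in untreated and 21.8, 4.98 and 24.7 in manipulated libraries, and on the left the density is lower in long rows.

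The 10 genes with the most loci in the wider reading were long, of 515 to 1565 kb. Lrrtm4, a postsynaptic adhesion protein (chromosome 4, 110699557 to 111497675), had 213, 267 and 293 loci in untreated and 218, 67 and 220 in manipulated libraries. Nlgn1, a postsynaptic partner of neurexins (chromosome 2, 111057170 to 111972967), had 132, 299 and 158 against 255, 137 and 220. In these genes, which had the highest mean numbers, the numbers of loci overlapped between the groups. The inner FPKM of Nlgn1 and the own FPKM of both genes were lower without overlap in manipulated rats. Il1rapl1, a synaptic adhesion receptor on chromosome X (55438741 to 57004773), had 448, 147 and 326 against 105, 19 and 78, without overlap. Its inner FPKM differed by -3.06 on the log2 scale (SE 1.2) and its own FPKM by -0.54, and the limma adjusted p was 0.218 and 0.333.

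The next genes showed both patterns. Frmpd4, a scaffold protein of dendritic spines (chromosome X, 27554690 to 28206930), had 153, 114 and 220 loci in untreated and 60, 1 and 44 in manipulated libraries. Its own FPKM was 6.73, 4.46 and 4.83 against 6.36, 5.75 and 3.51, so the locus numbers did not overlap while the gene's own values did. Hs6st3, a heparan sulfate sulfotransferase, had 128, 87 and 234 loci against 50, 0 and 44, with an own FPKM of 4.59, 3.16 and 5.28 against 3.91, 3.96 and 4.26. Dlgap2, a scaffold of the postsynaptic density, had 118, 195 and 212 loci against 48, 17 and 130, which overlap. Its inner FPKM, 284, 210 and 206 against 58.1, 16.6 and 91.9, did not. By number of loci, Etl4 and Samd12 did not overlap, and the teneurin Tenm4 and the sodium pump partner Nkain2 did.

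**Figure D4:**
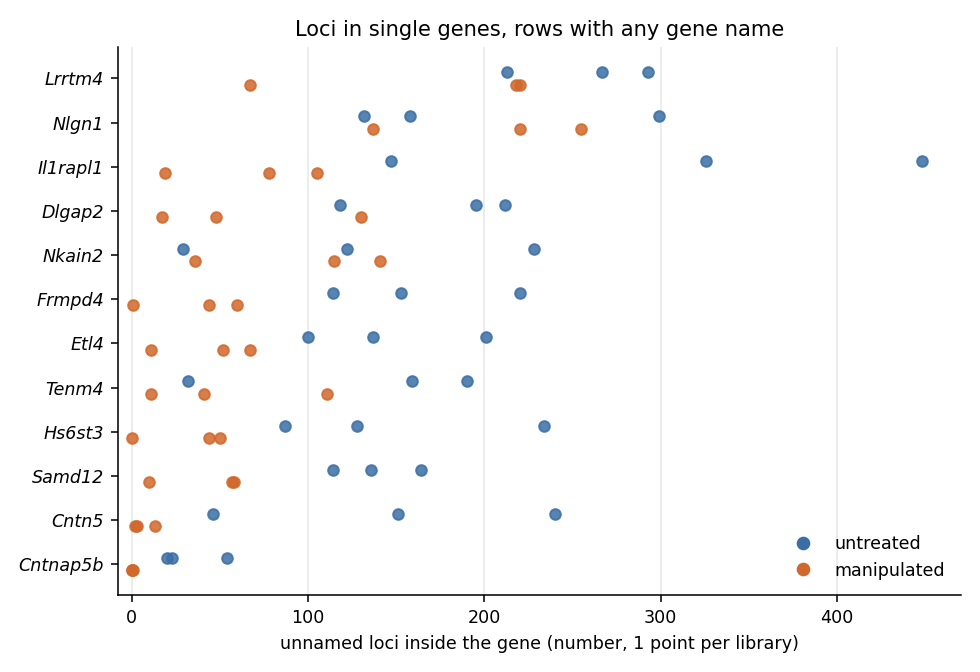
Each point is the number of unnamed loci inside 1 gene in 1 library (x axis), for untreated (blue) and manipulated rats (orange), in rows with any gene name. The 10 genes with the highest mean number come first, followed by Cntn5 and Cntnap5b, chosen after their values were seen. Lrrtm4 and Nlgn1 overlap between the groups, while Il1rapl1, Frmpd4, Hs6st3, Cntn5 and Cntnap5b do not.

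Over the tested genes, inner FPKM was lower in manipulated rats by more than the genes' own FPKM, and no single gene passed. Of 7606 genes with a locus and a row of their own, 4348 had a mean inner FPKM of at least 1, and 3258 were not tested. By limma 0 of 4348 passed an adjusted p of 0.05 (0.0% called), with 903 at an unadjusted p under 0.05, of which 862 were lower (19.8%) and 41 higher (0.943%). The median log2 fold change of inner FPKM was -1.40, and 84.5% lay below 0. Without the filter, over 7606 genes, the median was -0.75. The filter used the mean inner FPKM of all libraries, so a gene could enter through untreated libraries alone. How far this lowers the median of inner FPKM was not tested. Own FPKM was filtered by its own mean, so its median is not on like terms. The median of own FPKM was -0.36 over 10643 genes and -0.37 over the 4048 genes in both fits. Under median-ratio scaling the median of inner FPKM was -1.19. Groups did not overlap in 1208 of 4348 genes (27.8%) on the lower side and in 44 (1.01%) on the higher side. For own FPKM the shares over all genes tested were 23.7% and 1.08%. Over the genes tested for inner FPKM they were 24.6% and 0.437%. By number of loci, 911 of the 4348 genes were lower without overlap (21.0%) and 25 higher (0.575%).

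The fit of inner against own FPKM asks whether the loci moved beyond their gene. Its median log2 fold change was -1.04, with 79.3% of genes below 0 and 20.7% above. The genes passed the same filter on mean inner FPKM, so here too a gene could enter through untreated libraries alone. How far this lowers the median of this fit, and the medians by gene length below, was not tested. It had 532 genes lower (12.2%) and 66 higher (1.52%) at an unadjusted p under 0.05, and 1 gene of 4348 (0.023%) passed, on the lower side. That gene was Prtg, an immunoglobulin superfamily protein of the embryo. It held 1 locus of 82 bases (chromosome 8, 79582084 to 79582165) with 345, 159 and 168 FPKM in the untreated libraries and none in the manipulated ones. It passed the filter on low values through the untreated libraries alone. The limma adjusted p was 0.0292 for inner against own FPKM and 0.0621 for inner FPKM, and both depend on the pseudocount. No gene was called when loci under 150 bases were left out, with FPKM times span, without a filter, with weights per library or without any 1 untreated library. Without manipulated replicate 4 the count was 3, and without manipulated replicate 6 it was 6. By gene length, the median of inner FPKM was -1.02 under 10 kb, -1.47 at 30 to 100 kb, -2.07 at 300 to 1000 kb and -2.96 in 7 genes over 1000 kb. The median of own FPKM in the same bins was -0.41, -0.38, -0.36 and -0.51. The differences between bins were not tested.

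**Figure D5:**
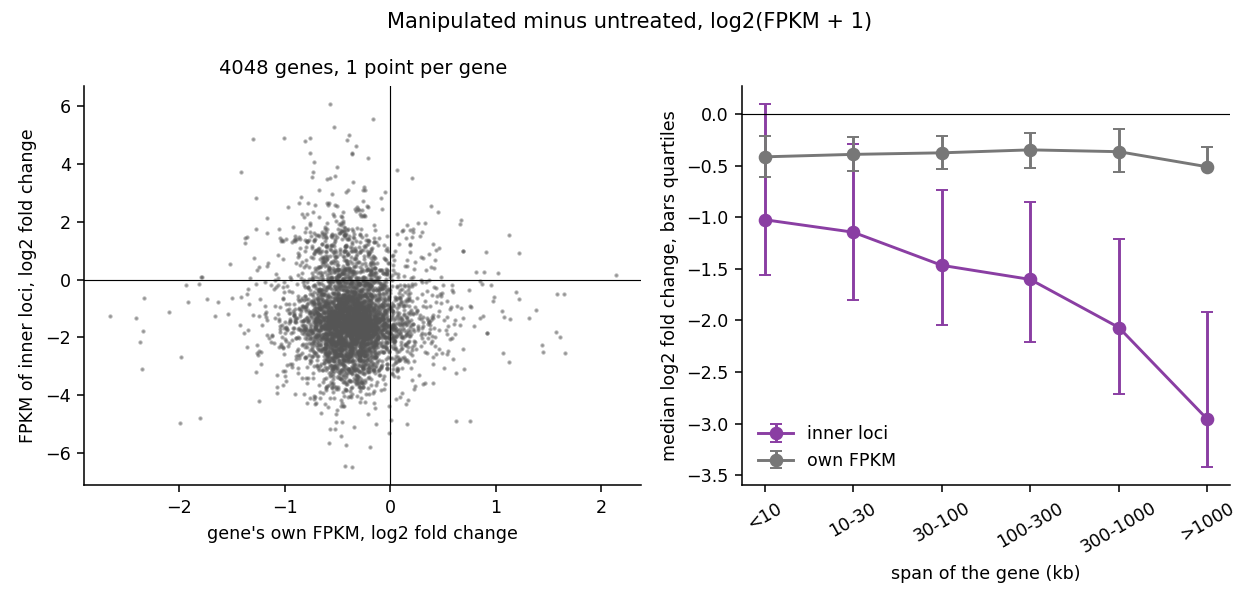
Left, each point is a gene, with the log2 fold change (manipulated minus untreated, FPKM + 1) of its own FPKM on the x axis and of its inner loci on the y axis, for 4048 genes. Right, points are medians and bars quartiles over the genes of each length bin in kb, for inner loci (purple) and own FPKM (grey). The medians of inner loci run from -1.02 to -2.96 and those of own FPKM stay between -0.51 and -0.35.

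Some genes had loci in 1 group alone or nearly so. Cdh2, the neural cadherin, had 8, 11 and 44 loci in untreated rats and none in the 3 manipulated libraries, while its own FPKM was 11.5, 7.99 and 9.44 against 8.08, 7.96 and 5.05. Cntn5, a contactin of neurons with a span of 1220 kb, had 240, 46 and 151 loci against 3, 2 and 13. Its inner FPKM differed by -4.66 on the log2 scale (SE 1.18), and the limma adjusted p was 0.199. Cntnap5b, of the neurexin superfamily, had 54, 20 and 23 loci against 1, 0 and 0, with an own FPKM of 4.2, 2.56 and 4.83 against 5.59, 3.84 and 3.78. These genes were chosen after their values were seen. On the higher side, the ribosomal protein gene Rpl13 held 1 locus in each manipulated library, at 19.8, 25.0 and 15.7 FPKM, and none in untreated ones (chromosome 19, 55917546 to 55917725). Cdh2 passed the filter on inner FPKM through the untreated libraries alone, and Rpl13 through the manipulated ones alone. Neither Cntn5, Cdh2, Cntnap5b nor Rpl13 passed the adjusted p.

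Gene lists chosen for brain tissue are described by their members, read against 84.5% of all tested genes below 0, 27.8% lower without overlap and a median of -1.40. These references differ by gene length. For all tested genes of 300 to 1000 kb the median was -2.07, with 91.8% below 0. At 100 to 300 kb it was -1.60, with 88.0% below 0. The median span was 438 kb for the synaptic adhesion list, 418 kb for glutamate receptors and 218 kb for potassium channels. Of 28 tested genes for synaptic adhesion and the neurexin family, 27 were lower, 8 without overlap, and the median log2 fold change of inner FPKM was -1.63 against -0.29 for own FPKM. Ncam2, an adhesion molecule, had 398, 201 and 211 inner FPKM in untreated and 307, 338 and 82.4 in manipulated rats. Of 18 genes for glutamate receptors and their scaffolds, 18 were lower, 6 without overlap, with a median of -2.10 against -0.38. Grin2a, an NMDA receptor subunit, had 256, 470 and 222 against 75.0, 12.9 and 127 FPKM. Grik2, a kainate receptor subunit, had 192, 91.4 and 427 against 66.4, 18.8 and 15.4. Neither gene overlapped between the groups. No member of any list passed the adjusted p.

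Of 11 genes for potassium channels and their subunits, 10 were lower, 4 without overlap, with a median of -2.79. Kcnj3, a G protein-gated channel subunit, had 16, 54 and 88 loci against 10, 1 and 0, and its inner FPKM differed by -5.40 on the log2 scale (SE 1.53, limma adjusted p 0.199). Kcnc2 had 1718 inner FPKM in untreated replicate 1 and at most 119 in any other library. Of 16 genes for calcium and sodium channels 13 were lower, 3 without overlap, with a median of -1.65, and of 7 genes for GABA-A receptors 7, 1 without overlap, with a median of -1.74. Of 14 RNA-binding splicing regulators 11 were lower, with a median of -1.38, and 4 did not overlap on the lower side and 1 on the higher side. Rbfox1 had 37, 17 and 91 loci against 63, 4 and 70.

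In the lists of glial genes, of 8 tested astrocyte genes 7 were lower, none without overlap, and of 9 genes for myelin and oligodendrocytes 7 were lower, 3 without overlap. Slc1a2, the main glutamate transporter of astrocytes, had 0, 251 and 129 inner FPKM against none in manipulated libraries, with an own FPKM of 106, 69.4 and 52.9 against 127, 118 and 36.2. Slc1a2 passed the filter on inner FPKM through untreated libraries alone. Microglia had 2 tested genes, and choroid plexus 4, all lower. The compact genes of every cell, with a median span of 9.75 kb, had 5 carriers among 18 genes, and 2 of the 4 tested were lower. Among non-coding host transcripts only Snhg11 had a row of its own, with 1 locus in manipulated replicate 4.

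In the lists that mark other brain regions, the loci and the genes could be set side by side. Of 7 tested thalamic and hypothalamic genes 6 were lower, 3 without overlap, and here the median of own FPKM was -1.80 and that of inner FPKM -1.25. The 3 without overlap, Lef1, Ntng1 and Vav3, passed the filter on inner FPKM through the untreated libraries alone. Lef1, a transcription factor of the Wnt pathway, had 26, 5 and 20 loci in untreated rats and none in the 3 manipulated libraries. Its own FPKM was 6.37, 4.93 and 7.50 against 1.51, 0.986 and 0.769 and fell, with a limma adjusted p of 0.0138. Ntng1, an axonal adhesion protein, had 33, 6 and 22 loci against none, and its own FPKM fell, with an adjusted p of 0.0463. Of 7 striatal genes 7 had lower inner FPKM, 1 without overlap, with a median of -1.84, whereas the median of their own FPKM was 0.57. Pde10a, a phosphodiesterase of striatal neurons, had 112, 15 and 87 loci against 4, 0 and 29, with an own FPKM of 6.48, 4.54 and 5.34 against 20.1, 15.0 and 6.24.

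Of 24 cholinergic genes with a row of their own, 9 had a locus and 5 were tested, with 4 lower, 2 without overlap, and a median of -0.64. Chrna7, a nicotinic receptor subunit that forms a receptor by itself, had 10, 4 and 7 loci in untreated rats and none in the 3 manipulated libraries. Its own FPKM was 2.89, 1.66 and 1.56 against 1.94, 6.52 and 3.38, which overlap. Chrna7 passed the filter on inner FPKM through the untreated libraries alone. By number of loci, 21.0% of the 4348 tested genes were lower without overlap. The muscarinic receptor gene Chrm4 had 3, 2 and 5 loci against 1, 0 and 1, and Chrm1 0, 3 and 5 against 0, 1 and 1. The choline transporter-like Slc44a1 had 4, 3 and 2 against 3, 2 and 6.

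The genes with the highest inner FPKM varied widely between libraries of 1 group. Trrap, a subunit of histone acetyltransferase complexes, had 7.01, 1696 and 7.21 inner FPKM in untreated and 2051, 2159 and 1485 in manipulated rats. Nyap2 had 3573, 12.3 and 207 against 1698, 1746 and 23.5. Eif4g2, a translation initiation factor, had 1 locus in each library, at 5.10, 11.9 and 5.61 against 7.12, 1487 and 976 FPKM. Nckap1, of the complex that drives actin assembly, had 12.6, 7.34 and 0 against 1120, 29.2 and 1018, higher without overlap. The difference was 6.07 on the log2 scale (SE 1.63), and the limma adjusted p was 0.199. Leaving out loci under 150 bases turned the direction of Nckap1, to -0.10. Atp10b, Cacnb2, Golgb1, Rab31, Ppp2r2b and Kcnc2 complete the 10 genes with the highest values, and 0 of the 10 passed.

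In the wider reading the loci formed 77659 places, of which 71.4% had a locus in 1 library and 691 in all 6. Of the 77659 places, 1276 had a locus in the 3 untreated libraries and in no manipulated one, and 93 had the opposite pattern. Untreated libraries held a mean of 34970 loci and manipulated ones 12838. The 2 counts therefore start from unequal numbers of loci and give no separate result about places. Of places found in all 6 libraries and 200 to 300 bases long, that in Cacnb2, a calcium channel subunit gene (chromosome 17, 81867184 to 81867449), had the highest mean. It had 9.29, 1397 and 23.9 FPKM in untreated and 295, 272 and 1311 in manipulated rats. Places in Tsnaxip1 and Vps8 followed, and all 3 overlapped between the groups. The untreated-only places with the highest mean lay in Prtg, Akap5 and Dtnbp1, and the manipulated-only places in Nckap1, Adarb1 and Rpl13. Between 2 libraries, a median of 34.0% of the loci met a locus of the other within the untreated group, 32.8% within the manipulated group and 32.1% between the groups. Outside named rows these medians were 66.3%, 66.2% and 66.9%.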

How the data were processed

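RNA from 6 libraries, 3 untreated and 3 manipulated, was analysed from gene-level tables of FPKM, deposited by the authors. The submitters' processing notes name the build Rnor_6.0 and the tools STAR 2.7.3a and Cufflinks. Depth is not given in the sources used here. Each unnamed locus was assigned within its own table to the smallest row that enclosed it, and FPKM was summed per gene. Start positions count from 0 in the files and are printed counted from 1. Where genes shared a row, they were left out of the fits per gene, which kept 26623 of 30077 symbols. Gene types were looked up by symbol in RefSeq (assembly GRCr8, no coordinates used), where 16902 of the kept symbols had an entry.

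For values per library, the test was an exact permutation over the 10 ways to divide 6 libraries into equal groups, two-sided. For values per gene, limma 3.58.1 (R 4.3.3) was run with trend on log2(FPKM + 1), over genes with a mean of at least 1 FPKM, two-sided, with Benjamini-Hochberg adjustment at 0.05. A gene without a locus in a library had 0 there. Under the rule this held for genes with an Ensembl row in all 6 libraries. Fold changes on this scale understate the change of low genes and depend on the pseudocount at 0. The labels name 1 animal per library. On simulated data for the 4348 genes tested for inner FPKM in any row with a gene name, the fit recovered 1.19%, 24.2% and 57.0% of genes changed by 2, 4 and 6 on the log2 scale, with a mean of 2.8 false calls. Other steps used pandas 2.3.3 and matplotlib 3.10.9 under Python 3.11.15.

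Members and gene lists were chosen with earlier results of these data known. Named are the 10 genes with the most loci, the 10 with the highest inner FPKM, 2 to 4 members of each of 15 lists by inner FPKM, and places by fixed rules. Clone and locus names are counted. Synpo2, Prtg, Cdh2, Cntn5 and Cntnap5b were chosen after their values were seen. Alternatives covered filters on loci, the enclosing rows, the pseudocount, scaling, variance model, weights and leaving out each library. Those chosen after seeing the data used any row with a gene name, genes with an Ensembl row in all 6 libraries, loci of at least 150 bases, loci not in a smaller named row, and numbers of loci.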

Additional observations from a re-analysis of the deposited data

How the results depend on the processing

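No paired analysis was possible because the labels number the animals 1 to 6 and the groups share no number. Under the rule, the ratio of manipulated to untreated means stayed below 1 for the number of loci, 0.509 to 0.634 when each library was left out, and for carriers, 0.607 to 0.667. It was 0.367 for loci inside any row with a gene name. The ratio of summed FPKM, 0.937, crossed 1 with loci of at least 300 bases (1.36), the gene span common to all libraries (1.10), genes with an Ensembl row throughout (1.10), median-ratio scaling (1.18) and FPKM times span (21.8). In the last, 1 locus of 54.8 kb made up 98.5% of the value of manipulated replicate 5. Without each library it ran from 0.732 to 1.165, above 1 without untreated replicate 2 or 3 or manipulated replicate 6. The density in rows of 100 to 300 kb divided by that under 10 kb had a ratio of manipulated to untreated means of 1.06 under the rule, 0.645 in any named row and 0.702 to 1.33 without each library. The share of unnamed loci under the rule had a ratio of 1.36, 0.800 in any named row and 1.13 to 1.54 without each library. Inside any named row, summed FPKM had a ratio of 0.502, 0.830 with FPKM times span, 0.714 with median-ratio scaling and 0.447 to 0.554 without each library. The median share of loci met in another library, 32.8%, was 12.9% when 50% of both had to overlap. Genes called for inner FPKM in any named row numbered 0, and 1 with a pseudocount of 0.1, without a filter, without a trend or with a mean of at least 5. For inner against own FPKM, 1 was called under any named row and 0 with FPKM times span, without loci under 150 bases, without a filter or with weights per library, and 0 without each untreated library, 3 without manipulated replicate 4 and 6 without manipulated replicate 6. Under the rule both fits called 0 to 2 without each library, with 2 without manipulated replicate 6. For own FPKM 38 were called, 940 with weights per library and 37 to 71 without each library, with 71 without untreated replicate 2. The inner value of Nckap1 was -0.10 without loci under 150 bases. Where a removed locus or library does not show it, the cause was not tested. Most loci rest on few fragments, so the absence of a locus is not the absence of RNA.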
